A study of Mus musculus with 10 samples.

Results

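Sites occupied by the glucocorticoid receptor (GR) and by lysine-specific demethylase 1 (LSD1, encoded by Kdm1a) were compared in skeletal muscle of fed mice. The comparison rests on the libraries labelled GR fed and LSD1 fed, 2 of the 10 libraries of the series and 1 per protein. The GR list held 14108 peaks and the LSD1 list 16616 peaks, of 365066 peaks in the 8 lists. Peaks of the 2 lists that shared at least 1 bp were joined, which gave 23584 sites. Of these, 6787 (28.8%) carried both proteins, 7295 (30.9%) carried GR only and 9502 (40.3%) carried LSD1 only.

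The authors applied chromatin immunoprecipitation followed by sequencing (ChIP-seq) to nuclei of limb muscle from C57BL/6J mice, which were male per the study's text. Their age was 10 weeks per the labels, and a different one per the study's text. The fed animals are compared here, and lists from animals starved for 24 h are used only to look up the same sites. The labels name no genotype and no number of animals per library. The nuclei came from whole muscle, so a strong signal in few nuclei and a weak signal in many cannot be told apart. GR fed and LSD1 fed also carry different library codes in the labels, so that the protein and the code cannot be told apart. With 1 library per protein no test was made, every difference describes these libraries, and the 95% intervals given cover counting error only.

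GR is a nuclear receptor that moves to the nucleus when it binds glucocorticoid hormone. It recognises the glucocorticoid response element (GRE), a pair of hexamers facing each other across 3 bases, and it can also be held at DNA by other proteins. LSD1 is a flavin-dependent enzyme that removes methyl groups from lysine residues of histone H3. It has no sequence preference of its own that is comparable to that of a transcription factor, and works in complexes with partners such as the corepressor RCOR1. In muscle, glucocorticoid signalling is known for its control of protein breakdown, autophagy, fuel use and circadian genes.

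The classes differed in the short sequences that they held, and stretches of the mouse genome (RefSeq, GRCm38) are shown to make these visible. They were chosen after the values were seen, by the highest fold enrichment over input among sites with the motif and with no exon in the printed stretch. Each carries 23 bases on either side of the motif, which is in capitals. The first 5 hold both hexamers of the GRE, AGAACA and TGTTCT, without a mismatch. The stretches of Zhx3 (chr2:160805287-160805347), Plk3 (chr4:117136272-117136332), Hk2 (chr6:82771231-82771291) and Myoc (chr1:162621734-162621794) came from sites of GR only, and that of Ramp1 (chr1:91199975-91200035) from a site of both proteins. All 5 are given on the plus strand.
Zhx3, GR only: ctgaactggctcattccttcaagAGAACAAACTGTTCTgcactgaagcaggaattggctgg
Plk3, GR only: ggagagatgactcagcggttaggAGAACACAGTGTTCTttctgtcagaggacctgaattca
Hk2, GR only: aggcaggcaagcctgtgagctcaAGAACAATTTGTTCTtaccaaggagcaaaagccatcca
Myoc, GR only: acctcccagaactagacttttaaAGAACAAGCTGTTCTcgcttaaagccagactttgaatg
Ramp1, both: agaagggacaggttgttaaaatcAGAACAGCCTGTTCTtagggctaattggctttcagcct
The GR fold enrichment over input was 9.57 at the Zhx3 site, an intronic site 67.8 kb downstream of the transcription start site (TSS). It was 6.14 at the site 2.33 kb upstream of Plk3, a polo-like kinase gene, and 5.51 in an intron of Hk2, the gene of hexokinase 2, 3.19 kb downstream of its TSS. It was 5.34 at Myoc and 3.90 at Ramp1, where LSD1 had a fold of 3.86.

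Sites of both proteins outside promoters more often held the E-box CAGCTG, the sequence bound by MyoD and related muscle regulators. The A/T-rich element of MEF2 factors was found in every class, with overlapping intervals for sites of both and of GR only. Examples are the E-boxes in introns of Fntb (chr12:76884013-76884064) and Hif3a (chr7:17058458-17058509) and the MEF2 element in an intron of Ank3 (chr10:69945052-69945107), all on the plus strand.
Fntb, E-box, both: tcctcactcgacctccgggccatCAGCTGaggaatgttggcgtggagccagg
Hif3a, E-box, both: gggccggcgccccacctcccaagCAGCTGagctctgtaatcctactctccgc
Ank3, MEF2, both: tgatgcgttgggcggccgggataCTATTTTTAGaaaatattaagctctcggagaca
These sites were among the strongest of GR, with GR folds of 14.6 at Fntb, 13.4 at Hif3a and 14.2 at Ank3. The LSD1 folds at the same sites were 5.80, 4.84 and 3.73.

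Promoters are represented by the palindrome of nuclear respiratory factor 1 (NRF1), GCGC, AT and GCGC in a row, in sites of both proteins at Msl1 (chr11:98795166-98795221, plus strand) and Naa16 (chr14:79390765-79390820, minus strand) and in sites of LSD1 only at Paxbp1 (chr16:91044482-91044537, minus strand) and Exog (chr9:119444862-119444917, plus strand).
Msl1, NRF1, both: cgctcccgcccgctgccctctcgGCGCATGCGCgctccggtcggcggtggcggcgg
Naa16, NRF1, both: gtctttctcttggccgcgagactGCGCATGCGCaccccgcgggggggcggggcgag
Paxbp1, NRF1, LSD1 only: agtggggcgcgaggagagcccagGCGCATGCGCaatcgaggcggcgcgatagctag
Exog, NRF1, LSD1 only: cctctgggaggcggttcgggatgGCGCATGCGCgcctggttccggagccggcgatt
The LSD1 fold was between 4.36 at Exog and 4.69 at Msl1 in these 4 sites, and GR had a fold of 3.05 at Msl1 and 4.08 at Naa16. All 4 sites had their midpoint within 331 bp of the TSS.

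The first question was where the sites of each class lay relative to genes. Sites of GR only were mainly intronic and intergenic and lay far from start sites. Sites of LSD1 only were the closest to start sites, and sites of both proteins were in between. A promoter began 1000 bp upstream of a TSS and ended 100 bp downstream. Promoters held 14% of the GR-only sites (95% CI 13.2 to 14.8), 31.6% of the sites of both (30.5 to 32.8) and 34.6% of the LSD1-only sites (33.6 to 35.6). Introns held 49.6% of the GR-only sites, against 36.1% of the sites of both and 34.4% of the LSD1-only sites. Intergenic sequence held 30.7%, 25.4% and 22.4%, and exons outside promoters 5.76%, 6.60% and 8.46%.

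Read from the side of the genome, 50.9% of the 6456 promoter sites were LSD1 only, 33.3% carried both proteins and 15.8% were GR only. Of the 9336 intronic sites 38.7% were GR only, 35.0% LSD1 only and 26.2% both, and of the 6094 intergenic sites 36.7%, 35.0% and 28.3%. The share of both was thus highest in promoters, and GR alone was the rarest class there and the most frequent one in introns and between genes. The median distance from a site to the nearest TSS was 2027 bp for LSD1 only (95% CI 1706 to 2420), 5855 bp for both (5086 to 6459) and 14838 bp for GR only (14083 to 15665). Outside promoters the medians were 12987, 17868.5 and 19894 bp, so the order of the classes was kept with less distance between them. A TSS lay within 1 kb of 45.6% of the LSD1-only sites, 39.1% of the sites of both and 18.9% of the GR-only sites.

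**Figure D1:**
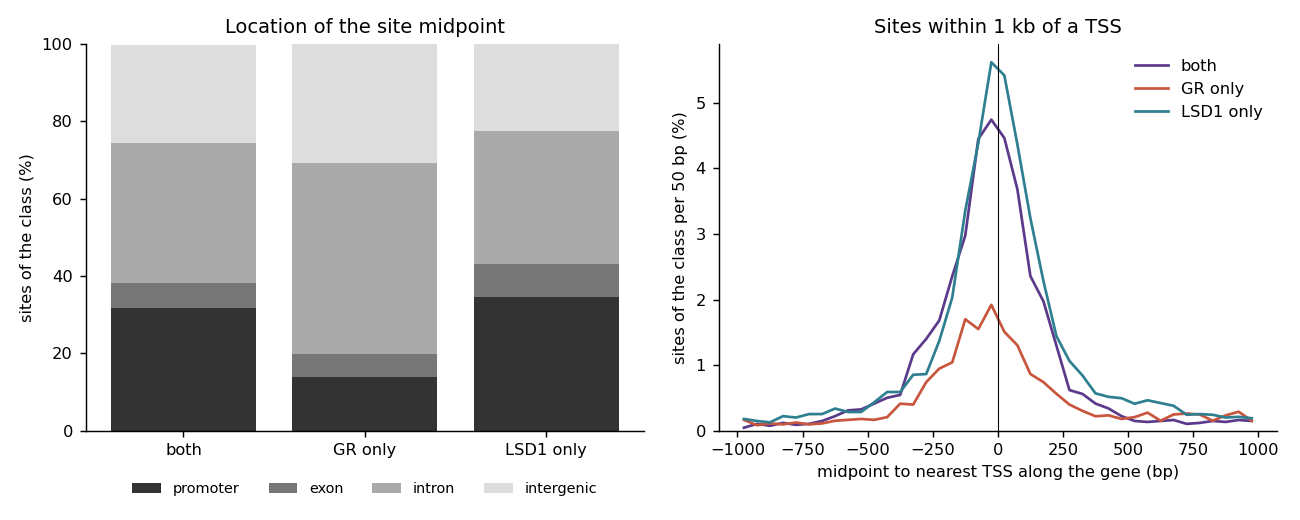
Location of the 3 classes of sites in fed muscle, as the share of sites in promoters, exons, introns and intergenic sequence (%) and as the distance of site midpoints from the nearest TSS. The GR-only class has a promoter share of 14%, against 31.6% for both proteins and 34.6% for LSD1 only.

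The promoter shares of the classes changed when weak peaks were left out. When peaks below a fold enrichment of 5 were dropped from both lists, 1 of 185 sites of both lay in a promoter (0.541%), against 4.97% of the GR-only and 18.8% of the LSD1-only sites. The order of both and GR only was then the opposite of that for the full lists. The classes were formed anew from the remaining peaks, so a GR peak whose LSD1 peak was dropped counted as GR only. In promoters 51 of 2132 GR peaks with LSD1 and 19 of 1021 without reached a fold of 5. The cut itself thus left few promoter sites that could carry both, and the shares do not describe the shared sites of the full lists. Length differed between the classes as well, with medians of 450 bp for both, 226 bp for GR only and 159 bp for LSD1 only.

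Sequence composition differed between the classes, also within a location. The median GC content in 200 bp around the midpoint was 51% for GR only, 56.5% for both and 56% for LSD1 only, and the ratio of observed to expected CpG dinucleotides was 0.248, 0.368 and 0.454. Within promoters GR only was lowest as well, with GC medians of 61%, 65.5% and 65% and CpG ratios of 0.722, 0.827 and 0.849. Outside promoters the GC medians were 50%, 53.5% and 52%. Repeat-masked sequence covered at least 50% of 8.39% of the LSD1-only sites, 3.69% of the GR-only sites and 1.11% of the sites of both. On the X chromosome, 23 of 191 sites (12%) carried both proteins, 75 GR only and 93 LSD1 only, whereas the share of both was between 25.7% and 31.3% on each autosome. The mice were male, and the part of X copy number in this share was not tested.

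The second question was how the peaks of the 2 proteins were placed on each other. Most shared sites were simple, since 6476 of the 6787 (95.4%) joined 1 GR peak and 1 LSD1 peak. The peaks overlapped in 7140 pairs. The broad peaks have no summit in the deposited lists, so the offset was measured between the midpoints. It had a median of 89 bp (95% CI 86 to 92) and quartiles of 39 and 173 bp. The midpoints were within 50 bp in 31.8% of the pairs, within 100 bp in 54.6% and within 200 bp in 79.7%. The offset was larger in promoters (median 105 bp) and exons (109 bp) than in introns (79 bp) and intergenic sequence (78 bp). The median GR peak of these pairs was 359 bp long and the median LSD1 peak 257 bp. The LSD1 peak lay whole within the GR peak in 2368 pairs (33.2%), the GR peak within the LSD1 peak in 1037 (14.5%), and 52.3% overlapped in part, with a median overlap of 178 bp.

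In promoters the offset had a direction. Among 1909 promoter pairs of 1 GR and 1 LSD1 peak at the same gene, 1902 had an offset other than 0, and in 1140 of these (59.9%, 95% CI 57.7 to 62.1) the LSD1 midpoint lay downstream of the GR midpoint along the gene. The median shift was 29 bp (95% CI 23 to 37). The GR midpoints had a median position of -80 bp from the TSS (-90 to -70) and the LSD1 midpoints of -55 bp (-63 to -47). Outside promoters, where the shift was read along the chromosome, it was in the plus direction in 49.3% of 4408 pairs (47.8 to 50.8) and had a median of -1 bp. Promoter peaks without the partner showed the same order. GR peaks without LSD1 had a median position of -98 bp (n = 1021) and LSD1 peaks without GR of -45 bp (n = 3288), with GR peaks shared with LSD1 at -75 bp (n = 2132) and LSD1 peaks shared with GR at -57 bp (n = 2265) between them. The shift was small beside the length of the peaks, and the shared promoter pairs with LSD1 downstream stayed between 59.4% and 61.4% under 4 other settings chosen after seeing the data. Pairs were taken by a GR midpoint in the promoter, which ends 100 bp downstream of the TSS, whereas the LSD1 midpoint had no such bound. All 4 settings kept this choice, and its part in the direction was not tested.

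**Figure D2:**
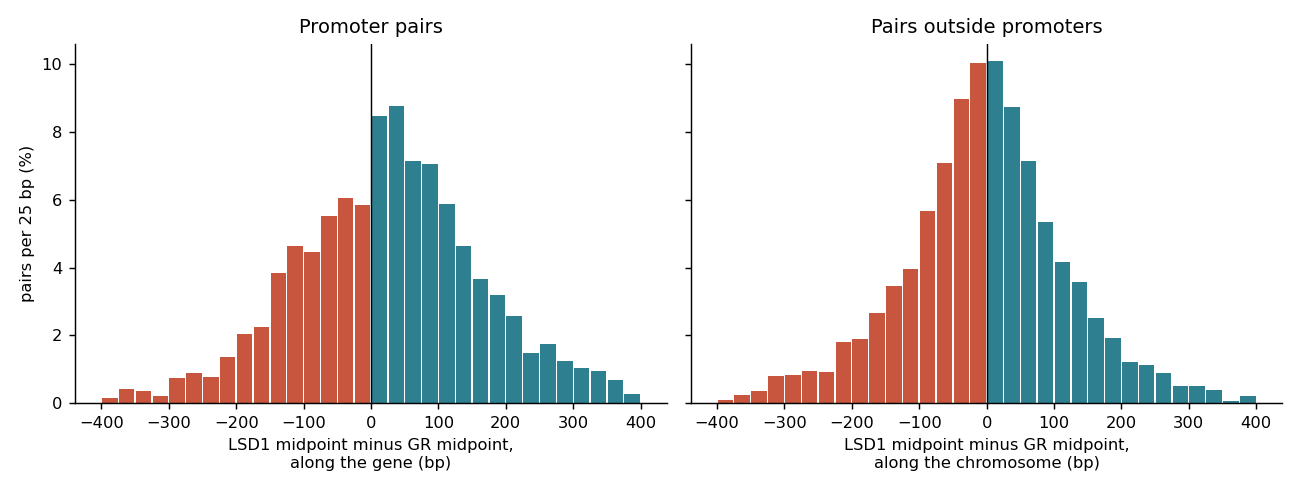
Offset of the LSD1 midpoint from the GR midpoint (bp) in overlapping pairs of peaks, in promoters along the direction of the gene and outside promoters along the chromosome. The median is 29 bp downstream where the GR midpoint lay in a promoter and -1 bp elsewhere.

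Sites of a single protein were often far from the other. The nearest LSD1 peak was a median of 13.5 kb from a GR-only peak, and 13.9% of the GR-only peaks (1014) had an LSD1 peak within 1 kb. The nearest GR peak was a median of 17.3 kb from an LSD1-only peak, and 15.6% (1484) had a GR peak within 1 kb. GR-only peaks in promoters differed from the rest in this respect, since 31.6% of them (323 of 1021) had an LSD1 peak within 1 kb, against 11% outside promoters.

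The third question was whether shared sites were stronger than sites of a single protein. Outside promoters GR peaks with LSD1 had a median fold enrichment over input of 3.61 (95% CI 3.56 to 3.64), against 3.30 (3.28 to 3.32) without LSD1. A fold of at least 5 was reached by 19.4% of the GR peaks with LSD1 and 9.45% of those without. LSD1 peaks with GR had a median fold of 4.17 (4.15 to 4.19), against 3.97 (3.96 to 3.98) without GR, and 11.4% against 6.21% reached a fold of 5. The ratios of the medians were 1.09 for GR and 1.05 for LSD1. In promoters the medians were 3.06 and 3.01 for GR, and 4.03 and 3.95 for LSD1. Peak length moved with sharing by more than fold did. Outside promoters the median GR peak was 344 bp long with LSD1 and 220 bp without, and the median LSD1 peak 241 bp with GR and 139.5 bp without, so the part of length in the overlap was not tested.

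Overlap of GR peaks by LSD1 rose over quintiles of GR fold outside promoters, from 32.5% in the lowest to 57.8% in the highest, and over quintiles of length from 20.4% to 67.7%. For LSD1 peaks the share with GR was 34.5% in the lowest fold quintile, 31.0% in the second and 58.2% in the highest, and it went from 19.9% to 75.6% over length. In promoters most GR peaks of any strength were shared. There 65.0% of the GR peaks of the lowest fold quintile were already shared with LSD1, against 74.8% of the highest. For LSD1 in promoters the shares were 33.7% and 47.5%. Within the 6476 pairs of 1 GR and 1 LSD1 peak, the folds of the proteins had a Spearman correlation of 0.281 across sites, 0.194 in the 2045 promoter pairs and 0.244 in the 4431 others. Sites are not independent replicates, and both lists were called against input chromatin.

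**Figure D3:**
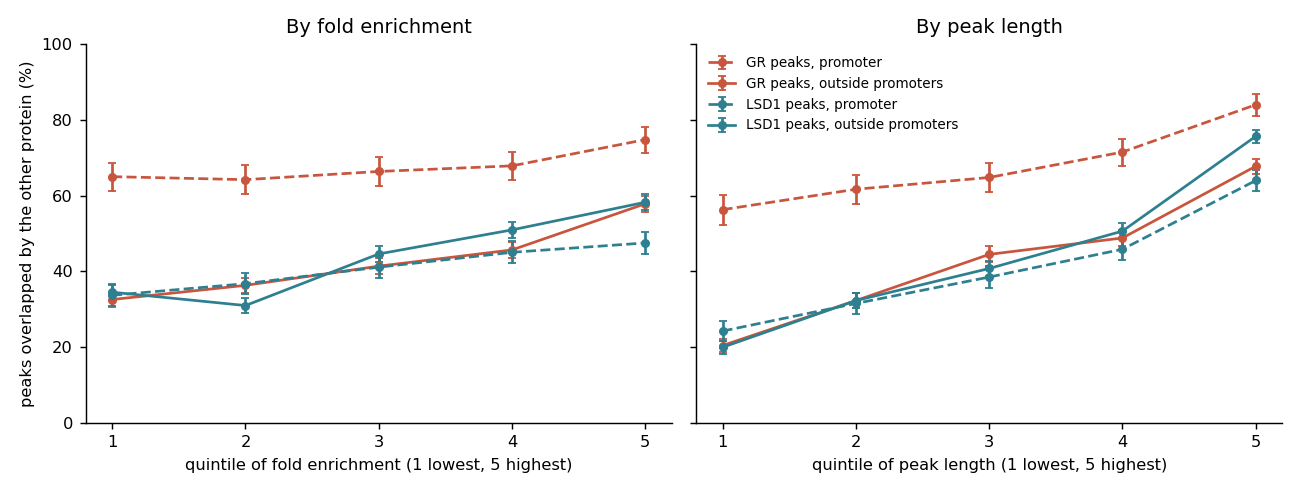
Share of peaks overlapped by the other protein (%) over quintiles of fold enrichment and of peak length, for GR and LSD1 peaks in promoters and outside them. Outside promoters the GR share goes from 32.5% to 57.8% over fold and from 20.4% to 67.7% over length.

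The fourth question was which sequences the classes held. A GRE-like sequence, with both hexamers and at most 1 mismatch, was found mainly at GR sites outside promoters, and more often at those without LSD1. In 200 bp around the midpoint of the GR peak it was present in 169 of 6273 GR-only sites (2.69%, 95% CI 2.31 to 3.13), in 42 of 4651 GR peaks shared with LSD1 (0.903%, 0.652 to 1.22) and in 28 of 21828 windows 5 kb away (0.128%). LSD1 peaks without GR held it in 6 of 6205 windows (0.0967%), which is near the level of the flanks. Without a mismatch, as in the stretches of Zhx3, Plk3, Hk2 and Myoc, the GRE was present in 23 GR-only windows (0.367%), 2 shared windows (0.0430%) and 1 flanking window. With up to 2 mismatches the shares were 11.1% for GR only, 4.95% for shared peaks and 1.99% for the flanks.

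The share at peaks with LSD1 was the lower one in each quintile of GR fold, with intervals apart from the middle quintile upward. In the highest quintile of GR fold, 6.84% of the peaks without LSD1 (95% CI 5.30 to 8.67) and 2.93% of those with LSD1 (2.07 to 4.02) held a GRE-like sequence. In the next lower quintile the shares were 4.88% and 0.201%, and in the middle one 2.42% and 0.111%. In the second quintile they were 0.935% (0.499 to 1.59) and 0.252% (0.0305 to 0.907). In the lowest quintile they were 0.268%, or 4 peaks, and 0%, where the upper bound is 0.530%. The intervals overlap in the second and in the lowest quintile. In whole peaks, which are longer where LSD1 is present, 3.32% of the GR-only and 1.78% of the shared peaks held it. Without a mismatch the whole-peak shares were 0.414% and 0.172%, and with up to 2 mismatches 13.6% and 9.42%. The gap between the classes was thus smaller in whole peaks than in windows of 200 bp. The single hexamer AGAACA on either strand was present in 27.4% and 20.4% of the GR windows.

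Where a GRE-like sequence did occur in an overlapping pair outside promoters, it was nearer to the GR midpoint in 56 of 88 cases (63.6%, 95% CI 52.7 to 73.6). Its median distance was 95 bp from the GR midpoint (54 to 142) and 119 bp from the LSD1 midpoint (83 to 160). The search covered both peaks of a pair, and all 88 lay inside the GR peak and 60 of them also inside the LSD1 peak. Few promoter sites held the element, with a GRE-like sequence anywhere in 8 of 2147 sites of both, 8 of 1021 GR-only sites and 1 of 3288 LSD1-only sites. In 200 bp around the midpoint it was present in 5 GR-only promoter sites (0.490%, 95% CI 0.159 to 1.14) and in 0 of the other classes. The share was 0.0886% in 200 bp upstream of all start sites and 0.245% in windows 5 kb from the GR-only promoter sites.

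The E-box CAGCTG, unlike the GRE-like sequence, was most frequent at sites of both proteins outside promoters. It was present in 26.5% of the windows of both proteins (95% CI 25.2 to 27.8), 19.7% of the GR-only (18.7 to 20.7) and 20.0% of the LSD1-only windows (19 to 21), against 9.21% to 9.85% of the flanks. Centred on GR peaks the shares were 25.7% with LSD1 and 19.7% without, and centred on LSD1 peaks 28.3% with GR and 20.0% without. The MEF2 element (CTA, 4 bases A or T, TAG) was present in 2.27% of the windows of both (95% CI 1.86 to 2.74), 1.82% of the GR-only (1.501 to 2.18) and 1.48% of the LSD1-only windows (1.197 to 1.82), against 0.307% to 0.359% of the flanks. Centred on GR peaks the MEF2 shares were 2.02% with LSD1 (1.64 to 2.47) and 1.82% without, so that a difference was not detectable, and centred on LSD1 peaks 2.43% with GR (2.01 to 2.90) and 1.48% without. GAAAC followed by CTGA, the MEF3 sequence, was present in 0.973%, 0.701% and 0.629%, against 0.215% to 0.258%. All 3 muscle-type elements were thus above the flanks in every class. The AP-1 sequence TGANTCA was present in 7.68%, 7.89% and 6.99% of the windows, against 5.49% to 5.82% of the flanks. AAGGTCA, a sequence of orphan nuclear receptors such as the estrogen-related receptors, was present in 5.93%, 6.55% and 4.35%, against 3.82% to 4.19% of the flanks. The GC-rich GGGCGG of SP and KLF factors was present in 13.4%, 7.76% and 14.7%, against 3.61% to 3.90%, and here GR only was the lowest class.

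Promoter windows were set beside 200 bp upstream of all 31603 start sites. NRF1 was present in 1.77% of the promoter sites of both (38 of 2147, 95% CI 1.26 to 2.42), 0.979% of the GR-only (10 of 1021, 0.471 to 1.79) and 1.55% of the LSD1-only sites (51 of 3288, 1.16 to 2.03), against 0.816% of all start sites and at most 0.147% of windows 5 kb away. The intervals of the 3 classes overlap. GGGCGG was present in 61.7%, 48.3% and 54.8% of the promoter sites, against 38.1% of all start sites. CCGGAAG of ETS factors was present in 12.2%, 12.54% and 13.9%, against 7.45%. A match of letters is a description and not a measured binding event of the factor named.

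**Figure D4:**
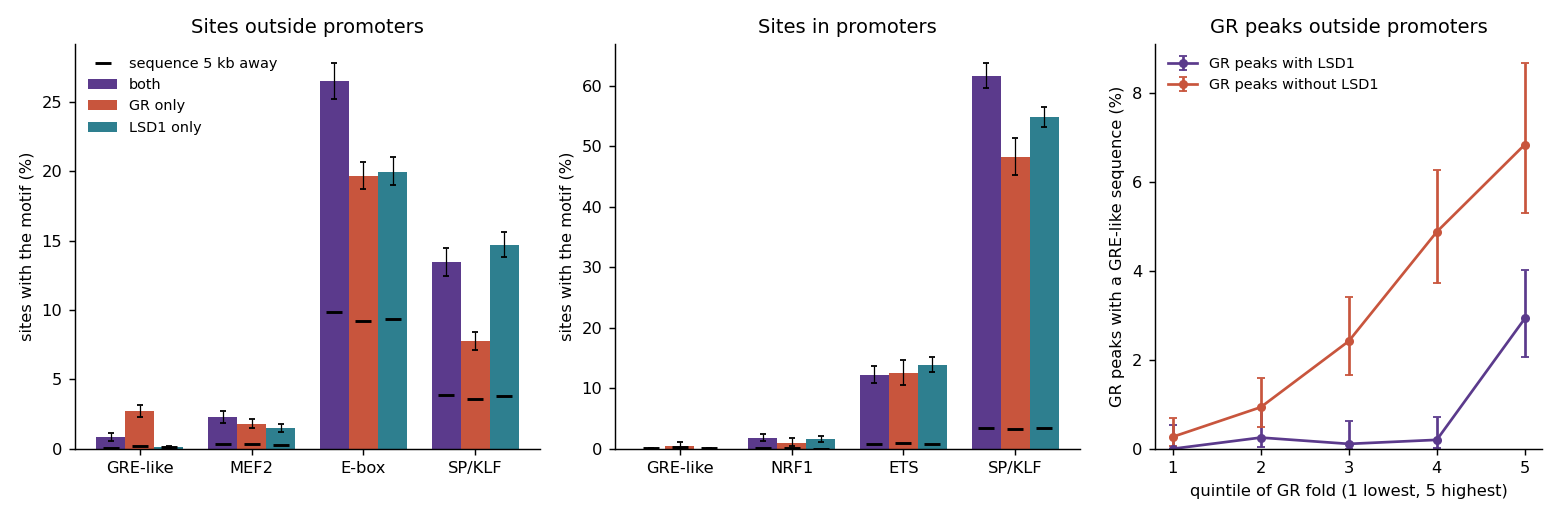
Share of sites with each sequence element (%) in 200 bp around the midpoint, by class, with 95% intervals for counting error and the share in windows 5 kb away. The GRE-like sequence is highest in the GR-only class outside promoters and the E-box in the class of both proteins.

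The fifth question was which genes had shared or separate sites. A gene was given the sites whose midpoint lay within 30 kb of one of its start sites. Of 26180 annotated genes, 7360 (28.1%) had at least 1 site of both proteins, 1895 (7.24%) had GR and LSD1 at separate sites, 1458 (5.57%) had GR only and 3739 (14.3%) had LSD1 only. In the promoter itself 2440 genes (9.32%) had a shared site, 860 (3.28%) GR only and 3135 (12%) LSD1 only. These shares are the background for every gene group that follows. The groups and their members were chosen with earlier results of these data known, genes of a group can share a site, and long sites near several genes count for each of them.

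Known targets of GR had more sites of every class than other genes and all had a shared site. The list held 25 genes, all 25 had a site of both proteins within 30 kb (24 within 10 kb), and 17 had one in the promoter. The mean number of sites per gene was 3.0 of both, 2.28 of GR only and 1.84 of LSD1 only, against 0.424, 0.372 and 0.638 over all genes. When peaks below a fold of 5 were dropped from both lists, 9 of the 25 kept a shared site.

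The highest GR fold at a shared site of these genes was found at Fkbp5, which encodes a chaperone of the receptor itself. Its shared site (chr17:28512089-28513304) lay 26.5 kb upstream of its TSS and 18.2 kb upstream of Armc12, and had a GR fold of 17.4 with an LSD1 fold of 3.797. Fkbp5 had no site of either protein in its promoter, 2 sites of GR only further upstream with folds of 2.77 and 7.83, and 1 of LSD1 only that was fully repeat-masked. The LSD1 fold at the shared site was thus below 4.12, the median of all LSD1 peaks shared with GR.

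Tsc22d3, which encodes the anti-inflammatory protein GILZ, had the most GR-only sites of the group, 7, with folds between 3.00 and 6.30, and none of LSD1 only. Its shared sites were in the promoter (chrX:140543189-140543460), with folds of 4.73 for GR and 4.32 for LSD1, and 29.1 kb downstream of the TSS, with folds of 11.9 and 6.01. Pdk4, the kinase that limits glucose oxidation, showed the reverse picture, with 3 shared sites and no other. Its promoter site (chr6:5495869-5496720) had folds of 3.64 for GR and 4.34 for LSD1, and its strongest site, 13.5 kb upstream, had folds of 7.53 and 4.33.

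Klf15, a transcription factor of amino acid breakdown, had LSD1 only in the promoter (chr6:90462487-90462808, fold 4.70), 72 bp downstream of the TSS. A shared site with folds of 9.62 and 6.42 followed 1.02 kb downstream in the gene, and others lay 8.66 and 10.0 kb downstream. Mt2, a metallothionein gene, Cdkn1a, the cell cycle inhibitor p21, and Lpin1, a phosphatidate phosphatase, had GR only in the promoter, with a GR fold of 3.20 at Mt2 and 2.99 at Cdkn1a. Each of these 3 genes had shared sites outside it, with best GR folds of 6.14, 6.29 and 9.51. In all 4 genes the class of the promoter site thus differed from that of the strongest GR site nearby.

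Circadian genes formed the next group, and Per1 belongs to both lists. Of 18 clock genes 16 had a shared site, 8 of them in the promoter, and 4 had GR only and 3 LSD1 only in the promoter. Per1 had 3 shared sites, with the strongest 2.05 kb upstream of the TSS (chr11:69096469-69097326, folds 10.4 and 3.69) and another across the promoter (8.40 and 4.15), and 6 sites of LSD1 only. Tef, a gene of the PAR bZIP family, had 5 shared sites, with folds of 11.7 and 4.06 at the most distant, 28.4 kb downstream of the TSS. The remaining 2 genes were Clock, with LSD1 only in the promoter (fold 3.91), and Npas2, with separate sites. The dimer partner of both of their products, Arntl, had a shared promoter site.

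Protein breakdown was represented by 15 ubiquitin ligases and related genes and 17 autophagy genes. Of the former 12 had a shared site, 8 of them in the promoter, and of the latter 16, 9 of them in the promoter. Nedd4, a ubiquitin ligase, had 7 shared sites, of which 2 lay in intergenic sequence upstream, 1 in the promoter and 4 in introns, with GR folds between 2.75 and 6.07. Ubb, a polyubiquitin gene, had 3 shared sites and no other, with folds of 8.15 and 4.39 at the one 7.32 kb downstream of the TSS.

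Tfeb, a regulator of lysosomal genes, had 6 shared sites, the largest number among the autophagy genes, with folds of 8.73 for GR and 7.28 for LSD1 at the one 11.1 kb downstream of the TSS (chr17:47748313-47749823). Map1lc3a, which encodes LC3A of the autophagosome membrane, had LSD1 only in the promoter (fold 3.90) and a shared site 17 kb downstream with folds of 11.4 and 4.52. Ulk1, the kinase that starts autophagy, was the exception among the 17 genes, with 4 sites of GR only, folds between 2.63 and 4.10, and no LSD1 site. Bnip3, a receptor of mitophagy, had a shared promoter site (3.21 and 3.83) and a shared site 10.0 kb upstream (4.96 and 3.83).

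Of 22 genes of insulin and mTOR signalling 15 had a shared site, 9 of them in the promoter. Foxo3 and Foxo1, both transcription factors of muscle atrophy, differed. Foxo3 had a shared promoter site (chr10:42276348-42276903, folds 3.00 and 5.11) and a shared intronic site with a GR fold of 10.9. Foxo1 had no shared site, and its promoter held a GR peak (chr3:52267666-52267884, fold 2.83) and an LSD1 peak (chr3:52267908-52268109, fold 3.77) next to each other without contact. Mtor had a shared promoter site, whereas Tsc1 and Tsc2, inhibitors of the mTOR complex, had GR only in the promoter and no other site. Their GR folds were 2.71 and 3.86.

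Of 26 genes of the contractile apparatus 20 had a shared site, 10 of them in the promoter. Tnni2, fast troponin I, had folds of 11.95 and 4.18 at a shared site 20.4 kb downstream of the TSS, and Mybpc1, slow myosin binding protein C, 11.4 and 5.83 at one 13.9 kb downstream. Ttn, which encodes titin, had no shared site. It had 4 sites of GR only, with a fold of 8.49 at chr2:76977400-76977985 in the first introns and of 2.96 in the promoter. Its 1 site of LSD1 only lay in the promoter too, apart from that of GR. Of 18 muscle transcription factor genes 14 had a shared site, 4 of them in the promoter. Myod1 had 5 and Myog 4 shared sites with GR folds between 2.88 and 4.06, and Tead4 had folds of 10.0 and 5.99 at an intronic site. Eya1, Eya4 and Tead1 had GR only.

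Of 15 genes of the receptor, of LSD1 and of their cofactors, 5 had a shared site, 3 of them in the promoter. Kdm1a itself had a single shared site in its promoter (chr4:136602678-136602863, folds 3.82 and 4.35), and the partner gene Rcor1 likewise (3.15 and 4.23). Nr3c1, which encodes GR, had 1 GR-only and 3 LSD1-only sites in its promoters and none shared. Nrf1 had LSD1 only in the promoter, with a fold of 4.94. Hdac1 and Crebbp had GR only in the promoter. The coactivator genes Ncoa1 and Ncoa3 had GR only outside it.

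Housekeeping groups had promoter sites of LSD1 only and of both proteins more often than all genes. LSD1 only was found in the promoter of 34 of 84 genes of the cytosolic ribosome and 12 of 39 of the proteasome. For the mitochondrial ribosome it was 21 of 78 and for the respiratory chain 22 of 86. The share was 12% over all genes and 13.7% over protein-coding genes. Shared promoter sites were found at 17, 6, 13 and 17 genes of these groups in turn, against 9.32% of all and 10.6% of protein-coding genes. The shared share of the proteasome thus rests on 6 genes. LSD1 only was thus the larger class here, as it was over all genes (3135 against 2440), and for the respiratory chain the 2 classes stood in much the same proportion as over all genes. Examples of LSD1 only in the promoter are Ndufv2 and Ndufs1 of respiratory complex I and Cox6a2, the muscle form of a cytochrome oxidase subunit. Shared promoters of the same group include those of Sdha, Ndufa9 and Uqcrfs1. Within 30 kb the shared class was present at 37 genes of the cytosolic ribosome, 11 of the proteasome, 32 of the mitochondrial ribosome and 38 of the respiratory chain, so the proteasome was at 11 of 39 beside the background of 28.1%.

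Olfactory receptor genes had few sites. Of 1110 such genes 9 had a shared site within 30 kb and 1062 had no site, beside 28.1% and 44.8% of all genes. Of 39 Hox genes 8 had a shared site, beside the background of 28.1%, and 20 had no site, beside 44.8%. Of the 6 markers of the muscle fibre 5 had a shared site, and the other, Ttn, had separate sites. Each of the 6 marker lists of other cells of the tissue (endothelial, macrophage and leukocyte, satellite cell, fibroblast and fibro-adipogenic, adipocyte, Schwann cell), with 4 to 7 genes each, had a shared site at 0 or 1 gene, too few genes to set a list apart from the background. None of the genes of these 6 lists had a site of either protein in its promoter, and neither did 74.6% of all genes.

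**Figure D5:**
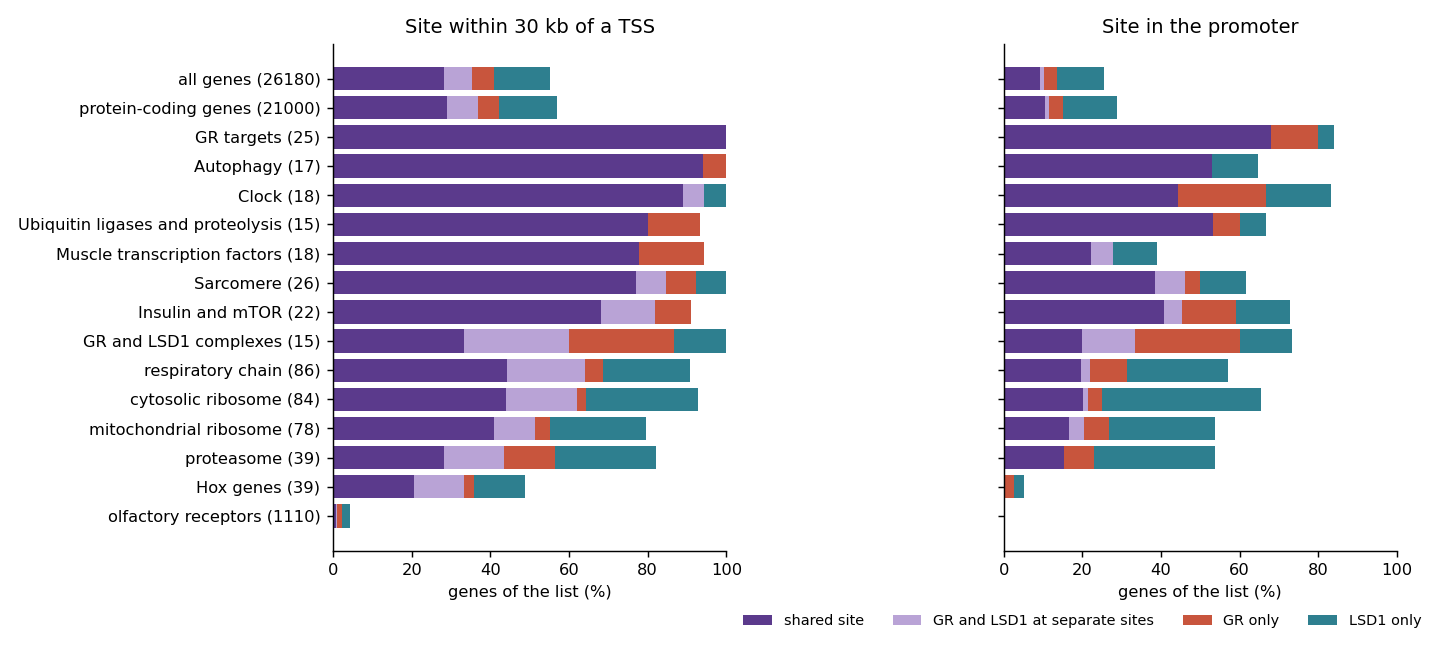
Share of the genes of each list (%) with a shared site, GR and LSD1 at separate sites, GR only or LSD1 only, within 30 kb of a TSS (left) and in the promoter (right), with the number of genes in parentheses. All 25 GR target genes have a shared site within 30 kb, against 28.1% of all genes, and LSD1 only is found in the promoter of 34 of 84 genes of the cytosolic ribosome.

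Genes were also grouped by the class of their promoter, to see what lay around it. At least 1 GR site outside promoters but within 30 kb was present at 45.5% of the 2440 genes with a shared promoter site (95% CI 43.5 to 47.5), 42.4% of the 860 with GR only (39.1 to 45.8), 38.8% of the 3135 with LSD1 only (37.1 to 40.6) and 22.6% of the 19521 with neither (22.0 to 23.1). A shared site outside promoters was present at 26.7%, 24.2%, 20.9% and 12.45% of the same groups.

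The genes that follow were named by the sites of highest fold in each class. These were chosen among sites of at least 200 bp, under 50% repeat-masked and within 30 kb of a TSS, so sites outside these limits are not named. Over all peaks without the other protein, the highest fold was 16.5 for GR and 21.3 for LSD1. For both proteins outside promoters these were, by GR fold, Armc12 (17.4), Rab7 (15.8), Capza1 (15.5), BB123696 (15.2), Plin3 (14.7), Ank3 (14.2), Ankrd9 (13.6) and Hif3a (13.4). The LSD1 folds at these 8 sites were between 3.73 and 5.75, and 5 of them were above 4.57, the upper quartile of LSD1 peaks shared with GR outside promoters. Rab7 encodes a small GTPase of late endosomes, with its site (chr6:88062459-88062947) 17.4 kb upstream of the TSS, and Plin3 a coat protein of lipid droplets, with its site (chr17:56292124-56293419) 2.26 kb upstream. All 8 sites were called again in the GR list of starved muscle, and 3 of them in the LSD1 list. Over all sites of both outside promoters the shares were 81.6% and 28.0%. In promoters the shared sites of highest LSD1 fold were at Zbtb22 (7.49), Fbxo31 (6.50), Itm2b (6.26), Irf2bp2 (6.09), Mamstr (6.05) and Sertad2 (6.00), with GR folds between 2.75 and 3.91. Mamstr encodes a coactivator of MEF2 factors and Fbxo31 a subunit of a ubiquitin ligase. These 6 promoters were present in both starved lists, and 5 of them in the fed H3K9me2 list. Over all promoter sites of both the shares were 87.5% in GR starved, 53.2% in LSD1 starved and 40.8% in fed H3K9me2.

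The GR-only sites chosen in the same way outside promoters were at Zfp36 (15.4), Bmp8a (13.2), Ccnd3 (12.3), Scaf4 (11.5), Atg9b (10.9), Lrrc20 (10.4), Ascc1 (10.1) and Mdga1 (9.73). Zfp36 encodes the mRNA decay factor tristetraprolin, and its site (chr7:28376372-28376703) lay 2.69 kb downstream of the TSS. Among the sites named by fold in the 3 classes, that at Ascc1 (chr10:59997542-59997868) alone held a GRE-like sequence. The GR-only promoters so chosen were at Phyhd1 (7.41), Syn2 (7.30), Pnpla7 (6.34), Scfd2 (6.04), Kcna5 (5.85) and Dpf2 (5.73). All 14 GR-only sites were called again in GR starved, and 3 of them, at Ccnd3, Ascc1 and Dpf2, in LSD1 starved. Over all GR-only sites the shares were 50.05% and 9.92%, and the 14 had been picked for their high fold.

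The LSD1-only sites chosen in the same way outside promoters were at Rn7s2 (8.16), Atp5h (6.77), Pdgfc (6.35), Limch1 (6.07), Zmiz1 (5.94), Fam78b (5.84), Lynx1 (5.83) and Macroh2a3 (5.82), and those in promoters at Mtmr12 (5.77), Gabpb1 (5.75), Abl1 (5.54), Rn7s1 (5.52), Zim1 (5.50) and Schip1 (5.42). Gabpb1 encodes a subunit of the GABP factor of the ETS family, and its site (chr2:126675329-126675696) lay 79 bp downstream of the TSS. Rn7s1 and Rn7s2 encode the RNA of the signal recognition particle, and their sites were present in all 4 other lists examined. Of the 14 sites, 5 were called in LSD1 starved, against 16.9% of all LSD1-only sites.

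Genes with most sites of a class within 30 kb were, for both proteins, Cuedc1 with 10 and Mir1191b, Mir6338, Mknk2 and Nfic with 8 each, a number that Nr4a1 and Usp2 shared. Usp2 encodes a deubiquitinase under circadian control. For GR only they were Mb, which encodes myoglobin, and Retreg1, a receptor of endoplasmic reticulum autophagy, with 8 each, and Dab2ip, Mir7212 and Osbpl9 with 7, as for Rara and Tsc22d3. Mir1191b lies within Nfic and Mir7212 within Retreg1, so the same sites can count for both genes of such a pair. For LSD1 only they included Fam53b, Ifnz and Lrrfip1 with 9 and Actb with 7. Actb, cytoplasmic beta-actin, had 6 sites of GR only beside its 7 of LSD1 only and no shared site.

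The last question was whether the classes differed in lists that did not enter their definition. Sites of both proteins were called again most often. A peak of GR starved overlapped 83.5% of the sites of both (95% CI 82.6 to 84.3), 50.05% of the GR-only sites (48.9 to 51.2) and 36.1% of the LSD1-only sites (35.1 to 37.1). A peak of LSD1 starved overlapped 36.0%, 9.92% and 16.9%. LSD1-only sites thus coincided with GR more often than with LSD1 in the starved lists, which differ in size, with 37783 GR and 66332 LSD1 peaks. The fed H3K9me2 list, of 171402 peaks, overlapped 24.0% of the sites of both (22.99 to 25.04), 11.3% of the GR-only (10.6 to 12.1) and 14.9% of the LSD1-only sites (14.2 to 15.6). In promoters these shares were 40.8%, 26.2% and 22.99%, and outside them 16.2%, 8.91% and 10.6%. The fed H3K9me1 list overlapped 3.57%, 0.960% and 1.70%. Sites of both were also the longest, at a median of 450 bp, and the part of length in these shares was not tested. The LSD1 starved list analysed here holds many times more peaks than the study's text reports for LSD1 after starvation. It was used without a q-value limit, so the shares called in it do not describe the starved LSD1 peaks of the study.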

How the data were processed

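ChIP-seq libraries of GR and LSD1 from fed muscle were compared as lists of peaks, 1 library per list. Per the methods of the study, the authors mapped single-end reads to mm10 (GRCm38) with Bowtie, kept unique reads, removed reads in regions blacklisted for the human genome and called broad peaks with MACS2 against input. Demultiplexing was done with bcl2fastq 2.20.0.422 per the submitters' processing notes. The deposited lists give for each peak a fold enrichment over input, a ratio, and −log10 of a p-value and of a q-value. The p-value and a score were not used. The least stringent q-value was 0.0974 in the GR and 0.0932 in the LSD1 list, looser than the false discovery rate in the methods, and 9939 and 7553 peaks had a q-value of 0.01 or less. The shortest peak was 117 bp in the GR and 55 bp in the LSD1 list, and a short peak has less room for an overlap. The depth of the libraries is unknown.

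Peaks sharing at least 1 bp were joined into sites with Python 3.11.15 (numpy 2.4.6, pandas 2.3.3, scipy 1.17.1, pysam 0.24.0). Midpoints were assigned to promoters (1000 bp upstream to 100 bp downstream of a TSS), exons, introns or intergenic sequence, using the 45756 transcripts (26180 genes) of curated RefSeq on GRCm38. Motifs were searched on both strands in 200 bp around midpoints, in windows 5 kb to either side and in 200 bp upstream of 31603 start sites. The single hexamer also lies within the GRE, and other motifs can overlap. Only the GRE-like sequence was allowed a mismatch.

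Shares carry exact (Clopper-Pearson) and medians order-statistic 95% intervals. They cover counting error only, since neighbouring sites are not independent. With 1 library per protein no p-value is given. The scripts gave the known answer in 12 of 12 checks on simulated peaks and sequences.

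The members and lists, and the rules for naming, were chosen with earlier results of these data known. Named were, per class, the 8 sites of highest fold outside promoters and the 6 in promoters (at least 200 bp long, under 50% repeat-masked, within 30 kb of a TSS, 1 per gene), the 5 genes with most sites, and members of the gene lists. Sites on chromosomes 18 and Y and genes named Gm, LOC or Rik were not named. Some items that these rules pick are not reported here. The alternatives were a q-value of 0.01, a fold of 5, an overlap of 50% of the shorter peak, sequence under 50% repeat-masked, a promoter to 1000 bp downstream, a gap of 1 kb to the other list, other gene windows, whole sites and other mismatch numbers. The starved H3K9me1 and H3K9me2 lists were not used.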

Additional observations from a re-analysis of the deposited data

How the results depend on the processing

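Of 62 alternative values, 24 differed from the main value by less than its counting interval (counts by less than 1.5 times) and 38 moved by more. A change of direction was looked for only in the ratios of median folds and in the direction of promoter pairs, and 0 of these changed. Neither was computed at a fold of 5, and the order of classes was not part of this count. At a q-value of 0.01 or less in both lists, 32.1% of the GR peaks had an LSD1 peak, promoter shares were 23.3% (both), 17.2% (GR only) and 39.0% (LSD1 only), the median offset was 79 bp, the ratios of median folds were 1.07 for GR and 1.01 for LSD1, and 3625 genes had a shared site. At a fold of at least 5, the shares of overlap were 11.8% for GR and 16.6% for LSD1, promoter shares 0.541%, 4.97% and 18.8%, the offset 61 bp, and 231 genes and 9 GR targets had a shared site. An overlap of 50% of the shorter peak gave shares of 43.3% and 38.1%, promoter shares of 30.4% (both) and 16.3% (GR only) and an offset of 77 bp. With repeats removed, 44.4% of the LSD1 peaks had a GR peak and the LSD1-only promoter share was 37.3%. A promoter to 1000 bp downstream gave 39.1%, 18.9% and 45.6%, and sites with no partner within 1 kb gave 11.1% for GR only. A gene window of 10 kb left 4567 genes with a shared site and the nearest TSS alone 4604. The order of promoter shares, GR only below both below LSD1 only, held in each of these but the fold of 5, where both was lowest. The causes were not tested. The alternatives for the direction of promoter pairs, for GR targets, for 2 mismatches and for the window on the GR peak were chosen after seeing the data. No paired analysis was possible because each protein had 1 library. Without read numbers, a site of a single protein cannot be told from a site whose partner was below the calling threshold.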

Other observations

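Sites at tRNA genes were mostly of LSD1 only. Of 403 tRNA genes, 67 (16.6%, 95% CI 13.1 to 20.6) had a site of LSD1 only within 200 bp. The share of protein-coding genes was 14.1% (3066 of 21774, counted over the whole gene). Gene length differs between the kinds of gene, and its part in such shares of genes was not tested. A site of both was present at 23 tRNA genes (5.71%), against 18.1% of protein-coding genes, GR only at 5 and separate sites at 1. The 90 sites at tRNA genes were LSD1 only in 66 cases (73.3%, 63.0 to 82.1), both in 19 and GR only in 5. The corresponding shares of the sites at protein-coding genes were 41.4% LSD1 only, 29.4% both and 29.2% GR only. The LSD1-only sites at tRNA genes were short, with a median of 155 bp, and had a median repeat-masked share of 0%.

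Histone genes, whose copies lie in clusters on chromosomes 3 and 13, had LSD1 only more often than protein-coding genes. Of 69 genes, 25 (36.2%, 95% CI 24.99 to 48.7) had LSD1 only within 200 bp, against the same 14.1%, with 8 both, 2 GR only and 1 separate sites. Of the 34 sites there, 25 (73.5%) were LSD1 only, 7 both and 2 GR only. In the chromosome 3 cluster, H3c15, H2ac19, H2ac18 and H3c14 lay at shared sites, H2ac20 and H2bc21 at GR only, and H2ac21, H4c14, H3c13 and H2bc18 at LSD1 only. The separate case was H1f0, a linker histone gene on chromosome 15. Histone and tRNA copies are near-identical, and how unique mapping affected them was not tested. LSD1 only was found at 24 of 997 snRNA genes (2.41%) and 22 of 1228 miRNA genes (1.79%). Because gene length differs, these shares are not read as lower or higher than that of protein-coding genes. Of 39 sites at snRNA genes 24 were LSD1 only, whereas the 58 sites at miRNA genes were both in 23, LSD1 only in 25 and GR only in 10.

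The Y chromosome held 60 sites, of which 47 were LSD1 only, 8 GR only and 5 both.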
